A study of Homo sapiens with 12 samples.

Results

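The libraries labelled T24 shNC and those labelled RT4 shFTO were the most alike of the 6 possible pairs of groups in a study of the RNA demethylase FTO in bladder cancer cells. The pair was chosen by measured values: its mean Pearson r across 16200 genes was 0.781, the highest of the 6, and the next pair, RT4 shFTO with RT4 shNC, had 0.761. T24 shNC with T24 shFTO, which share a labelled line, had 0.706, below T24 shNC with RT4 shNC at 0.729. It holds 6 of the 12 libraries, 3 in each group, and all 23070 genes that passed the filter on low counts are members. Because the same libraries and genes chose the pair, every difference and call given here describes these libraries and supports no claim about how alike the groups are.

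T24 and RT4 are established human bladder cancer lines, T24 from a high-grade carcinoma and RT4 from a well-differentiated papillary tumour. Polyadenylated RNA was sequenced in 4 labelled groups of 3 libraries, and the recorded treatment is FTO knockdown for shFTO and none for shNC. T24 shNC is thus an untreated-labelled T24 group, and RT4 shFTO an RT4 group labelled as knocked down. The labels used here give no hairpin sequence and do not say whether a line was 1 clone or whether replicates were separate cultures, so p-values may measure only technical spread. Line and treatment both differ within the pair, so their parts in any difference cannot be told apart.

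FTO removes methyl groups from N6-methyladenosine (m6A), a mark that writer enzymes place on messenger RNA and that reader proteins bind. Urothelial cells normally carry uroplakins and simple keratins and are joined by E-cadherin, tight junctions and desmosomes. In mesenchymal cells the expressed set shifts towards fibrillar collagens, fibronectin and the proteases that remodel matrix. The gene groups below follow those roles, then immune signalling, metabolism, division and positional identity.

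FTO itself was lower in T24 shNC than in the libraries labelled RT4 shFTO. Its level in CPM (read counts relative to library size, scaled by the trimmed mean of M values) was 35.4, 36.3 and 33.9 in T24 shNC and 70.2, 71.3 and 65.2 in the libraries labelled RT4 shFTO. The groups did not overlap, the log2 difference was -0.97 (T24 shNC minus RT4 shFTO, as everywhere below), and within batches 1, 2 and 3 it was -0.98, -0.96 and -0.94. RT4 shNC had a mean of 46.2 CPM and T24 shFTO 25.5, so FTO goes against the label in RT4, and the libraries are called by their labels throughout. The other m6A eraser, ALKBH5, stood at 88.8, 88.2 and 85.4 CPM against 88.2, 88.1 and 90.8, with overlapping groups. METTL3, the catalytic m6A writer, was at 88.8, 87.4 and 91.9 CPM against 52.5, 55.5 and 53.8. Of 27 tested m6A writers, erasers and readers, 17 were called higher in T24 shNC and 9 in the libraries labelled RT4 shFTO. Among those at 10 CPM or more in a group, the reader IGF2BP2 differed most. Its log2 difference within batches 1, 2 and 3 was -3.17, -3.44 and -3.36, so it was higher in the libraries labelled RT4 shFTO. Over all tested genes, 39.4% were called higher in T24 shNC and 36.6% in the libraries labelled RT4 shFTO.

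Depth was 31291047 to 43791909 counts in T24 shNC and 38972182 to 42451196 in the libraries labelled RT4 shFTO. Mitochondrially encoded genes took 5.31% to 5.66% of counts in the former and 6.96% to 7.45% in the latter, and the part of that gap in the results was not tested. Replicates of a group correlated at 0.9955 to 0.997. They differed by more than sampling noise (chi-square per degree of freedom 5.47 to 8.55), which does not show whether they were separate cultures. Each library was counted as a sample. The scaling factors were about 1.07 and 0.90, and with library totals alone the median log2 difference of all genes moved from 0.03 to 0.28.

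The bladder labels were compared with the defining markers of urothelium, which split: the uroplakins named here were at or near 0 in both groups, while other markers were present, more of them in T24 shNC. Of 19 tested, 8 were at 10 CPM or more in T24 shNC and 4 in the libraries labelled RT4 shFTO. Of the 19, 13 were called higher in T24 shNC and 3 in the others, beside 39.4% and 36.6% of all tested genes. The summed levels of these markers were 1712 to 1788 CPM against 264.8 to 276.3 CPM. UPK1B and UPK3A, 2 uroplakins, had no count in any of the 6 libraries. UPK2 was at 1.03 to 1.42 CPM in T24 shNC and at 0.0566 to 0.0804 CPM in the libraries labelled RT4 shFTO. GATA3, a luminal urothelial transcription factor, reached at most 0.313 CPM in T24 shNC and 3.39 CPM in the others. Keratin 7 was present in both, and PPARG, a regulator of urothelial differentiation, stood at 39.6, 37.1 and 37.3 CPM against 26.8, 23.98 and 25.5. The epithelial transcription factor KLF5 was at 124.7 to 134.8 CPM against 7.91 to 8.91 CPM, and PSCA, a surface antigen of urothelium, at 53.0 to 54.3 CPM against 0.418 to 0.563 CPM. Of the 19 markers, 4 were at 10 CPM or more in both groups. Fibroblast markers likewise had 4 of 19 at that level in both groups, neuronal markers 3 of 13 and glial markers 2 of 8. Melanocyte markers had 1 of 7 and muscle markers 1 of 12, so such shared markers were not confined to urothelium. Leukocyte markers (10 tested), endothelial markers (7 tested) and lung epithelial markers (7 tested) had no member at that level in both groups. Neither did the hepatocyte (23 tested), kidney and Mullerian tract (8 tested) or intestinal epithelial markers (3 tested). In bulk samples fewer cells of a type and less RNA per cell cannot be told apart.

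Across the transcriptome, most genes still differed between the closest pair. By edgeR's quasi-likelihood test (Benjamini-Hochberg adjusted p under 0.05), 17535 of 23070 genes were called, 76.0% of those tested. The calls split into 9099 higher in T24 shNC (39.4%) and 8436 higher in the libraries labelled RT4 shFTO (36.6%), and for 17993 genes (78.0%) the 2 groups had no overlapping values. These shares are the background for every count below. Of the genes called, 10601 differed at least 2-fold. The median absolute log2 difference over all tested genes was 0.99. Among 8899 genes at 10 CPM or more in both groups, 4469 (50.2%) lay within 1.5-fold. At the other end, 165 genes were at 10 CPM or more in T24 shNC and under 0.1 CPM in the libraries labelled RT4 shFTO, and 122 the reverse.

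**Figure D1:**
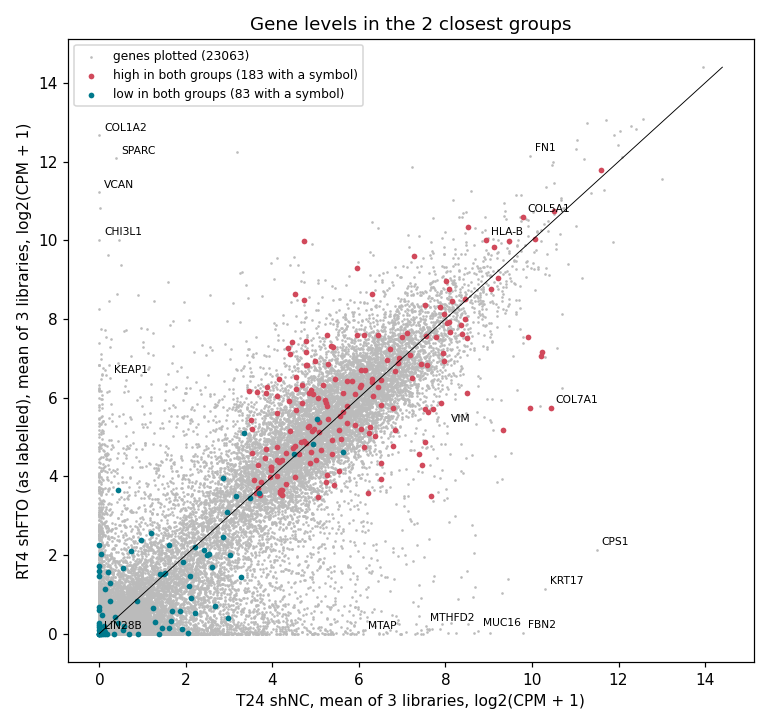
Mean level of each gene in T24 shNC (horizontal) and in the libraries labelled RT4 shFTO (vertical), as log2(CPM + 1), with the line of equal levels. Genes high in both groups and low in the other groups are red, and the reverse teal. COL1A2 sits at the left edge, and CPS1 lies far below the line but off the lower edge.

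What the pair shared against the other groups was counted with 4 cross-contrasts. A gene was taken as high in both when T24 shNC and the libraries labelled RT4 shFTO were each called at least 4-fold higher than T24 shFTO and than RT4 shNC and each reached 10 CPM. This held for 192 genes (0.832% of those tested), and the mirror definition, low in both, for 87 genes (0.377%). The same definitions gave 125 and 91 genes when groups were paired by labelled line, and 75 and 65 when paired by labelled treatment. The pair was chosen for its likeness, so the larger first count is a description. Of the 192 genes high in both, 113 were within 2-fold of each other in the pair, 33 were not called between them, 70 were called higher in T24 shNC and 89 in the libraries labelled RT4 shFTO.

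Chains of basement membrane collagen were among the genes high in both groups. Type IV collagen forms the sheet under epithelia, and 4 of its chains met the definition. COL4A2 was at 327.3, 327.6 and 340.7 CPM in T24 shNC and 197.0, 189.5 and 198.9 CPM in the libraries labelled RT4 shFTO, against means of 0.194 in T24 shFTO and 0.0091 in RT4 shNC. COL4A1, its usual partner chain, was at 90.5, 81.0 and 87.7 CPM and 190.3, 185.6 and 196.7 CPM, against 1.17 and 0.0061. COL4A5 and COL4A6, which pair in other basement membranes, lay at 268.0 to 273.1 and 176.4 to 189.7 CPM in T24 shNC and at 423.0 to 434.8 and 325.7 to 332.2 CPM in the libraries labelled RT4 shFTO. The order thus differed by chain: COL4A2 was higher in T24 shNC, and the other 3 were higher in the libraries labelled RT4 shFTO.

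COL5A1, a chain of the collagen that nucleates fibrils, showed the same contrast with the other groups. Its level was 873.8, 864.2 and 900.1 CPM in T24 shNC and 1551, 1510 and 1561 CPM in the libraries labelled RT4 shFTO, against means of 0.047 in T24 shFTO and 0.023 in RT4 shNC. COL1A1 was at 150.3 to 157.1 CPM and 755.4 to 800.8 CPM, with both other groups under 1 CPM. Among genes with the widest gap to the other groups were the long noncoding RNA FENDRR, the transporter SLCO3A1, the cadherin CDH13 and the carboxylesterase CES1, each at 0 in all 6 libraries of the other groups. CAVIN3, a caveolar coat protein, was at 26.6, 26.9 and 36.6 CPM and 36.4, 36.8 and 35.0 CPM, with overlapping groups in the pair, and was also at 0 elsewhere. SNAI2, an inducer of mesenchymal change, was at 25.2 to 26.6 CPM in T24 shNC and 28.2 to 29.3 CPM in the libraries labelled RT4 shFTO, a difference not called, and had means of 0.039 and 0 CPM in the other groups. TLR4, a receptor for bacterial lipopolysaccharide, and the cytokine IL6 followed the same pattern, IL6 at 14.4 to 17.6 CPM and 22.7 to 27.6 CPM.

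**Figure D2:**
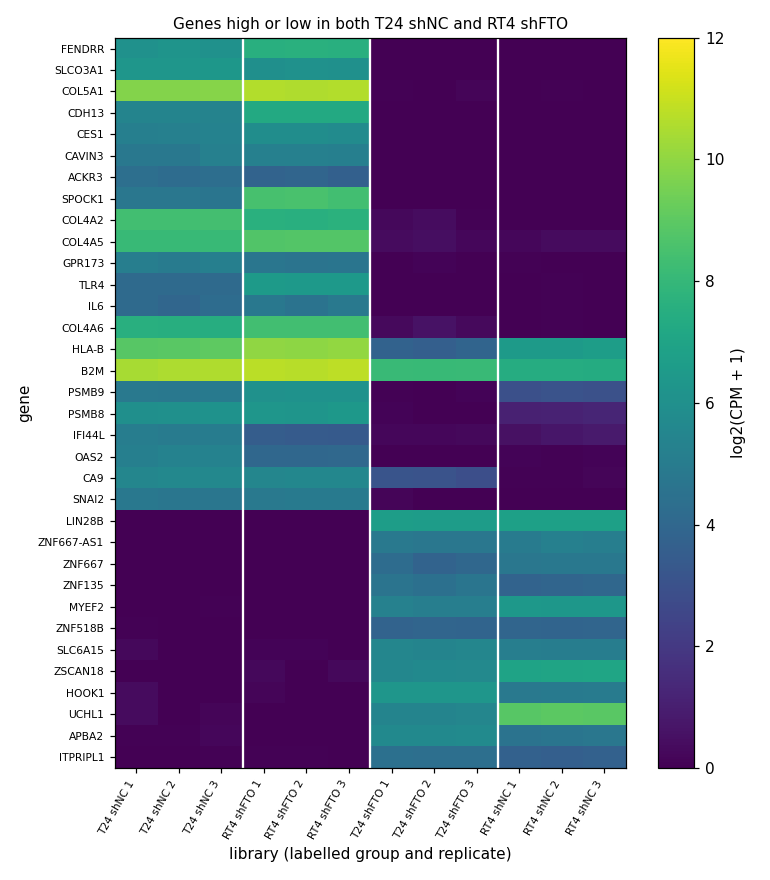
Level per library, as log2(CPM + 1), of genes high in both groups (upper rows) and low in both (lower rows), with the 3 libraries of each labelled group side by side. COL5A1 is bright in 6 libraries and LIN28B dark in the same 6.

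Some enzymes of the NRF2 programme were also high in both groups. NRF2 is a transcription factor that raises detoxifying enzymes, and KEAP1 is the adaptor that directs its degradation. Of 40 tested genes on that list, 7 were high in both groups, among them AKR1B1, AKR1B10, AKR1C1, AKR1C2, AKR1C3 and ALDH3A1. AKR1C3, an aldo-keto reductase, was at 341.6, 346.5 and 362.1 CPM and 374.8, 345.8 and 362.3 CPM, against 1.86 and 0.058. The AKR1C genes are near copies of one another, and how reads were split among them is not given in the sources used here.

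KEAP1, also on that list, was near 0 in T24 shNC. Its level was 0.313, 0.119 and 0.107 CPM in T24 shNC and 92.6, 83.4 and 92.0 CPM in the libraries labelled RT4 shFTO, and T24 shFTO and RT4 shNC, at means of 90.6 and 82.5, lay with the latter. The log2 difference was -8.99, the widest on the list among genes at 10 CPM or more in a group. Over all 40 genes, 22 were called higher in T24 shNC and 13 in the libraries labelled RT4 shFTO, with a median log2 difference of 0.60 beside 0.03 over all genes. AKR1C2 was at 974.1 to 1005 CPM in T24 shNC and 49.5 to 55.4 CPM in the libraries labelled RT4 shFTO. ABCC2, an export pump, was at 798.3 to 822.9 CPM against 71.6 to 72.0 CPM. AKR1B10 ran the other way, at 25.1 to 27.0 CPM against 168.3 to 180.7 CPM.

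**Figure D3:**
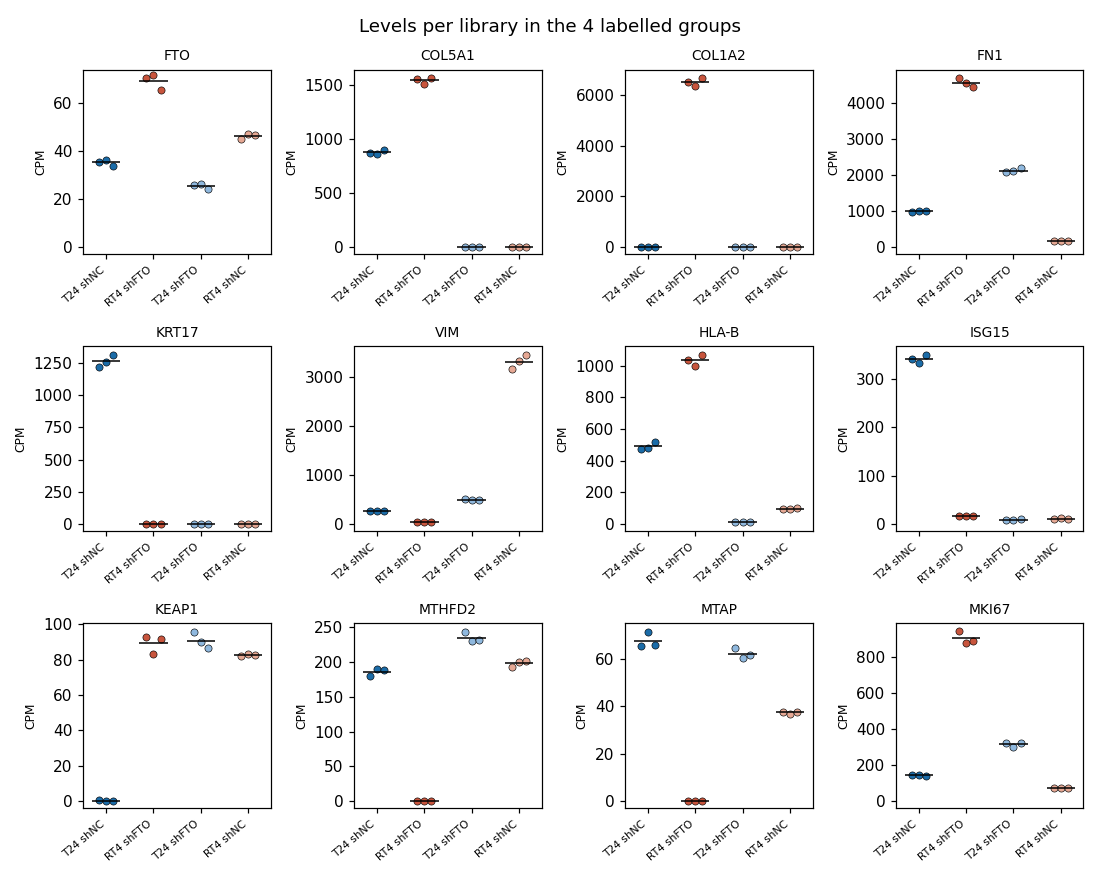
Level per library in CPM of 12 genes in the 4 labelled groups, with points for libraries and a line for the mean. FTO is highest in the libraries labelled RT4 shFTO, KEAP1 is near 0 only in T24 shNC, and MTHFD2 and MTAP are near 0 only in the libraries labelled RT4 shFTO.

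Some interferon-stimulated and antigen presentation genes were high in both groups, and within the pair the 2 lists leaned in opposite directions. Interferons raise antiviral genes such as the oligoadenylate synthetases and the machinery that loads peptides onto MHC class I. Of 42 tested interferon-stimulated genes, 7 were high in both: IFI44, IFI44L, OAS2, OAS3, SAMD9, SAMD9L and UBE2L6. Of 28 tested MHC and antigen presentation genes, 6 were: HLA-B, HLA-F, B2M, PSMB8, PSMB9 and NLRC5. Sequence around the interferon-stimulated response element (ISRE), the motif that interferon-activated factors bind, is shown for those whose promoters held it. The window searched ran from 250 bases before to 50 bases after each gene's start in RefSeq GRCh38.p14, and the ISRE was taken as GAAA and GAAA parted by any 2 bases, on either strand.

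The stretches below, up to 15 bases either side of a match and none past the gene's start, are printed 5′ to 3′ on the gene's strand with the ISRE match in capitals.
IFI44L (plus strand, chr1:78620269-78620308): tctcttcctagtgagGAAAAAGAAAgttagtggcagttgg
IFI44 (plus strand, chr1:78649756-78649788): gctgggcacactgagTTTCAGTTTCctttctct
SAMD9 (minus strand, chr7:93118091-93118130): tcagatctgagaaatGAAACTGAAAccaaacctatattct
OAS3 (plus strand, chr12:112938316-112938355): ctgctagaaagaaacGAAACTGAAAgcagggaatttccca
B2M (plus strand, chr15:44711364-44711403): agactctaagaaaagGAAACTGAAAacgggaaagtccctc
HLA-F (plus strand, chr6:29723263-29723302): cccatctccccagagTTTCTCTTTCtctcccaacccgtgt

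In IFI44L the same 40 bases occur again at chr1:78620360-78620399, and in B2M a second match overlaps the one shown. OAS3 also holds a second match, within chr12:112938447-112938473. Promoters on chromosome 8 were left out of the search and of every share given here. Of the 11 genes of these lists high in both groups with a promoter searched, 6 held the ISRE. It was in 996 of all 27305 promoters (3.65%) and 3.04% of those of tested genes. List members not high in both groups were not counted, so 6 of 11 cannot be tied to being high in both. Among all genes high in both groups, 8 of 138 promoters held the ISRE (5.8%), and among those low in both, 2 of 66 (3.03%). AP-1 (TGANTCA, both strands) was in 12.3% of promoters of genes high in both, 3.03% of those low in both, 5.31% of those of tested genes and 7.76% of all. TEAD (CATTCC, both strands) was in 10.9%, 3.03%, 11.4% and 14%, in the same order. A match describes letters only and shows no binding.

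The levels behind those windows were as follows. IFI44 was at 90.8, 89.3 and 91.9 CPM in T24 shNC and 14.9, 13.8 and 14.03 CPM in the libraries labelled RT4 shFTO, against means of 0 and 1.20 in T24 shFTO and RT4 shNC. OAS3, which makes the second messenger of RNase L, was at 145.3, 150.1 and 149.9 CPM against 92.9, 87.0 and 86.7 CPM. SAMD9 was at 46.0 to 50.6 CPM and 65.7 to 70.6 CPM. B2M, the light chain of MHC class I, was at 1374, 1463 and 1535 CPM and 1711, 1678 and 1796 CPM, and this small gap closes to a log2 difference of 0.0004 with library totals alone. HLA-F overlapped, at 48.9 to 57.3 CPM and 50.7 to 57.9 CPM. In T24 shFTO and RT4 shNC, B2M had means of 274.9 and 169.4 CPM.

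Antigen presentation genes were higher in the libraries labelled RT4 shFTO for 26 of 28 members, and 1 was higher in T24 shNC, with a median log2 difference of -1.26. HLA-B, a class I heavy chain, was at 476.3, 480.8 and 515.3 CPM in T24 shNC and 1036, 998.4 and 1069 CPM in the libraries labelled RT4 shFTO. Class II genes, normally borne by cells that present to helper T cells, were at lower levels. CIITA, their master regulator, was at 5.78 to 6.25 CPM against 36.1 to 38.3 CPM, and CD74, the invariant chain, at 1.19 to 1.37 CPM against 78.0 to 83.1 CPM. ERAP2, a peptide trimmer, was at 6.72 to 8.35 CPM against 338.9 to 339.2 CPM. Reads of HLA genes depend on allele, and their levels across lines are uncertain for that reason.

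Interferon-stimulated genes ran mostly the other way, with 27 of 42 called higher in T24 shNC, 12 in the libraries labelled RT4 shFTO and a median log2 difference of 1.45. ISG15, a ubiquitin-like protein, was at 339.8, 332.0 and 349.0 CPM in T24 shNC and 16.4, 16.2 and 15.5 CPM in the libraries labelled RT4 shFTO. OASL was at 390.6 to 397.5 CPM against 5.25 to 6.16 CPM, and IFIT1, which binds foreign RNA caps, at 205.4 to 212.6 CPM against 8.80 to 9.70 CPM. XAF1 was an exception, at 0 to 0.642 CPM in T24 shNC and 35.5 to 40.7 CPM in the libraries labelled RT4 shFTO. Among cytokines, 17 of 33 were higher in T24 shNC and 14 in the other group. CCL5, a T cell attractant, was at 239.7 to 245.7 CPM in T24 shNC and at most 0.268 CPM in the libraries labelled RT4 shFTO. CXCL12 was at 0 in T24 shNC and at 71.1 to 74.5 CPM there, and CSF1, the macrophage growth factor, at 12.01 to 13.4 CPM against 368.7 to 401.1 CPM.

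Genes low in both groups of the pair were led by LIN28B, which keeps let-7 precursors from being processed. LIN28B had no count in any of the 6 libraries and means of 99.5 and 112.0 CPM in T24 shFTO and RT4 shNC. ZNF667, ZNF667-AS1 and ZNF135 were also at 0 in all 6. ZNF667 and its antisense partner lie together, and the counting strand is not given in the sources used here. UCHL1, a neuronal deubiquitinase, was at 0 to 0.285 CPM in the pair and at means of 42.3 and 490.0 CPM in T24 shFTO and RT4 shNC. ERBB3, the tight junction genes OCLN and CGN, the desmosomal PKP2 and asparagine synthetase (ASNS) also met the definition. Of 83 such genes with a symbol and RefSeq position, 19 were on chromosome 19 (22.9%, beside 6.8% of tested genes), and 15 bore zinc finger family names (18.1%, beside 3.18% of tested genes), 11 of them on that chromosome. Both features were looked at after the values were seen.

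Some of the widest differences in the pair were matrix genes with no count in T24 shNC and a high level in the libraries labelled RT4 shFTO. Others of the kind were present in both: of 26 fibrillar collagens and lysyl oxidases, 3 had no count in T24 shNC and 13 were at 10 CPM or more there. COL1A2, a chain of type I collagen, had no count in T24 shNC and 6489, 6358 and 6651 CPM in the libraries labelled RT4 shFTO, at least 250200-fold higher against a floor of 3 counts over the group. VCAN, a large proteoglycan, was at 0 against 2376, 2449 and 2351 CPM (at least 91990-fold higher). CHI3L1, a secreted chitinase-like glycoprotein, was at 0 against 1006 to 1043 CPM. T24 shFTO and RT4 shNC had means of 0.523 and 0.020 CPM for COL1A2, so the high level was found in 1 of the 4 groups.

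SPARC, a matrix-associated glycoprotein, was at 0.683, 0.149 and 0.107 CPM in T24 shNC and 4222, 4411 and 4344 CPM in the libraries labelled RT4 shFTO. Thrombospondin 1 (THBS1) was at 7.62 to 8.68 CPM against 4816 to 4911 CPM, and fibronectin (FN1) at 968.3 to 1004 CPM against 4444 to 4687 CPM. Of those 26 genes, 19 were higher in the libraries labelled RT4 shFTO and 6 in T24 shNC, with a median log2 difference of -1.41. MMP2, a gelatinase, was at 0.238 to 0.512 CPM against 1010 to 1050 CPM, and MMP14, its membrane-bound activator, at 0.407 to 1.57 CPM against 374.0 to 394.9 CPM. The prolyl hydroxylase P4HA1, which modifies collagen chains, overlapped between the groups at 120.8 to 128.2 and 120.9 to 129.7 CPM. PCOLCE, an enhancer of procollagen cleavage, was higher in T24 shNC, at 26.0 to 28.1 CPM against 0.287 to 0.804 CPM.

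Mesenchymal genes were called higher in the libraries labelled RT4 shFTO for 19 of 30 members and in T24 shNC for 7. THY1, a fibroblast surface glycoprotein, was at 0.119 to 0.285 CPM in T24 shNC and 151.0 to 160.1 CPM in the libraries labelled RT4 shFTO, and N-cadherin (CDH2) at 48.9 to 53.2 CPM against 277.1 to 278.2 CPM. Vimentin (VIM), the mesenchymal intermediate filament, went the opposite way, at 259.1, 259.8 and 260.1 CPM in T24 shNC and 37.7, 38.0 and 37.0 CPM in the libraries labelled RT4 shFTO, with a mean of 3313 CPM in RT4 shNC. Fibroblast markers, 19 tested, summed to 1253 to 1315 CPM in T24 shNC and 10130 to 10450 CPM in the libraries labelled RT4 shFTO; 12 were called higher in the latter and 6 in the former, and 3 were at 0 in T24 shNC and 2 in the others. Their part in the matrix result was not tested. TAGLN, a smooth muscle actin-binding protein, overlapped at 5.10 to 5.93 and 5.25 to 5.98 CPM.

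Of 23 integrin subunits, 12 were higher in the libraries labelled RT4 shFTO and 7 in T24 shNC. ITGA11, a collagen receptor chain, was at 1.20 to 1.59 CPM in T24 shNC and 347.6 to 351.7 CPM in the libraries labelled RT4 shFTO, while ITGB4, the hemidesmosome chain, was at 203.3 to 217.7 CPM against 24.4 to 25.2 CPM. YAP and TEAD targets, genes read as tension-responsive, were higher in the libraries labelled RT4 shFTO for 17 of 24 and in T24 shNC for 6. CCN2 was at 32.0 to 32.8 CPM against 287.7 to 310.3 CPM, and AXL, a receptor kinase, at 15.1 to 15.4 CPM against 511.6 to 525.2 CPM. Caveolin 1 (CAV1) was at 74.2 to 76.7 CPM against 819.5 to 829.2 CPM, whereas vinculin (VCL) was not called, at 597.4 to 620.3 CPM and 579.7 to 588.6 CPM.

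Some keratins and basal genes were far higher in T24 shNC. KRT17, a basal keratin, was at 1220, 1259 and 1312 CPM in T24 shNC and 1.45, 0.961 and 1.18 CPM in the libraries labelled RT4 shFTO. TRIM29, a basal epithelial gene, was at 386.7 to 403.6 CPM against 0.758 to 1.07 CPM. KRT7, a simple keratin, was high in both groups against the others, yet higher in T24 shNC, at 1174 to 1255 CPM against 141.1 to 145.2 CPM. Of 8 tested genes on the simple keratin list, 3 were called higher in T24 shNC and 2 in the libraries labelled RT4 shFTO. The widest of them ran towards the latter: KRT81, a hair keratin with near copies among its neighbours, was at 8.28 to 9.14 CPM against 585.2 to 591.8 CPM. Basal and squamous genes were higher in T24 shNC for 12 of 20 and in the libraries labelled RT4 shFTO for 7, among them TP63, at 0.985 to 1.34 CPM against 12.8 to 13.1 CPM.

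Epithelial junction genes were higher in T24 shNC for 19 of 29 and in the libraries labelled RT4 shFTO for 5, but many levels were low. E-cadherin (CDH1) was at 3.99, 1.04 and 1.01 CPM in T24 shNC and 0.107, 0 and 0.078 CPM in the libraries labelled RT4 shFTO, whereas T24 shFTO had a mean of 154.7. ELF3, an epithelial transcription factor, was at 117.9 to 120.9 CPM against 0.085 to 0.470 CPM. Desmoplakin (DSP) was at 319.6 to 332.8 CPM against 15.4 to 17.2 CPM, while plakophilin 1 (PKP1) ran the other way, at 0.364 to 0.569 CPM against 197.7 to 208.4 CPM. Periplakin (PPL) was high in both, at 241.8 to 256.9 CPM and 254.8 to 290.9 CPM.

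Mucins were mostly higher in T24 shNC within the pair, 8 of 10 tested, and 2 were higher in the libraries labelled RT4 shFTO. MUC16, a large membrane mucin, was at 425.4, 448.9 and 420.3 CPM in T24 shNC and 0, 0.141 and 0 CPM in the libraries labelled RT4 shFTO. MUC1 was at 628.0 to 651.7 CPM against 34.1 to 35.8 CPM and was high in both against the other groups. Mesothelin (MSLN) was at 259.4 to 276.6 CPM against 0, 0 and 0.052 CPM. SPINK5 and SPINK6, inhibitors of skin proteases, were at 155.8 to 157.4 and 171.8 to 187.6 CPM in T24 shNC and at 0 in all 3 libraries labelled RT4 shFTO. The urea-cycle enzyme CPS1 was at 2838, 2913 and 2884 CPM against 3.67, 2.83 and 3.63 CPM, with means of 7.65 and 0.775 in T24 shFTO and RT4 shNC. It is also on the list of hepatocyte markers, of which 5 of 23 were called higher in T24 shNC and 9 in the libraries labelled RT4 shFTO.

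Basement membrane genes split almost evenly, 13 of 24 higher in T24 shNC and 11 in the libraries labelled RT4 shFTO. COL7A1, the anchoring fibril collagen, was at 1351, 1359 and 1428 CPM against 54.9, 50.9 and 51.2 CPM, and LAMB3, a laminin 332 chain, at 527.0 to 561.2 CPM against 32.8 to 37.1 CPM. LAMA4, a laminin chain of vessels and muscle, was at 0.714 to 1.08 CPM against 213.6 to 219.0 CPM. FBN2, a microfibril protein outside that list, was at 882.1 to 898.2 CPM in T24 shNC against 2 counts in the 3 libraries labelled RT4 shFTO together.

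**Figure D4:**
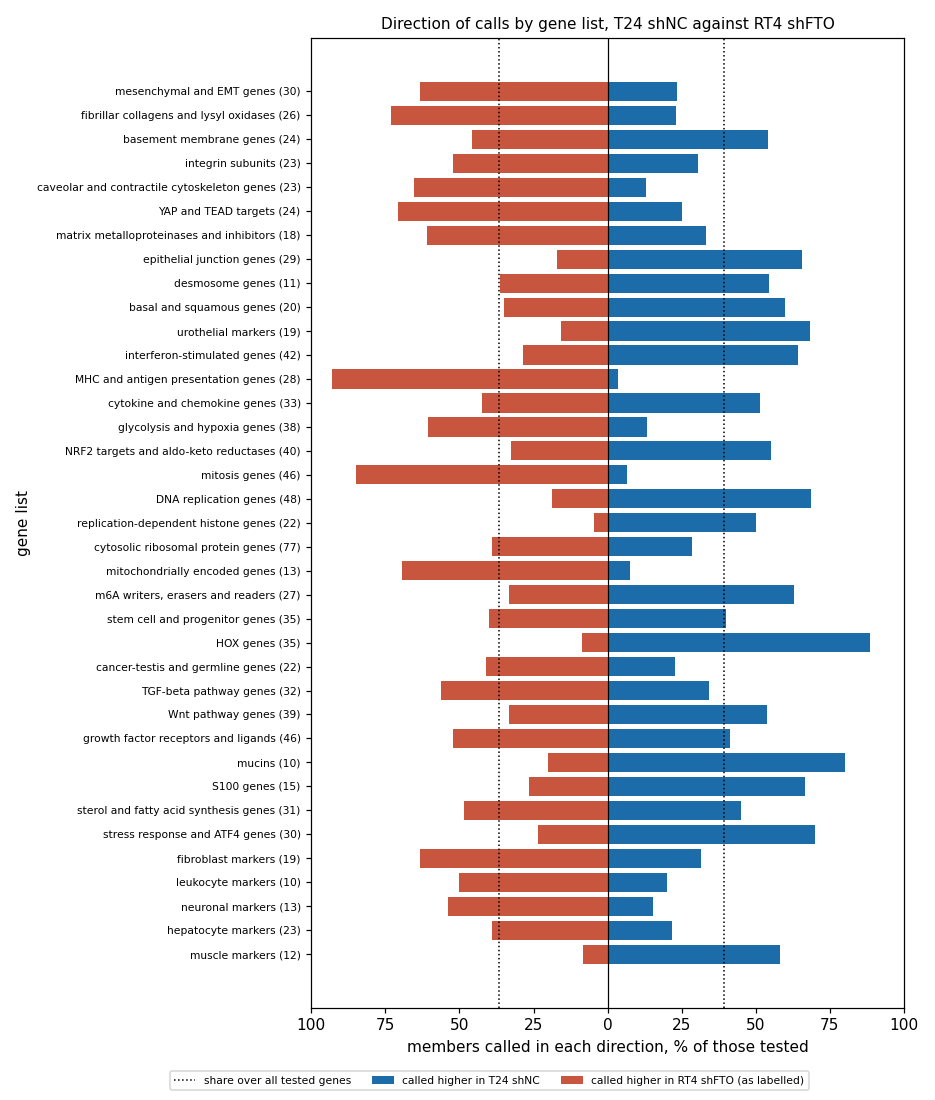
Percentage of the tested members of each gene list of 10 or more that were called higher in T24 shNC (right) or in the libraries labelled RT4 shFTO (left), with the number tested in brackets and dotted lines at 39.4% and 36.6%, the shares over all tested genes. HOX genes lean furthest right and antigen presentation genes furthest left.

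HOX genes, which record position along the body axis, were mostly higher in T24 shNC. Of 35 tested, 31 were higher in T24 shNC, 3 in the libraries labelled RT4 shFTO and 1 was not called, and 16 had no count in any library labelled RT4 shFTO. The median log2 difference was 7.90, or 6.12 with genes at 0 set at their bound. HOXA10 was at 20.98, 23.7 and 20.6 CPM in T24 shNC and 0 in the libraries labelled RT4 shFTO. HOXC10 was at 60.2, 62.5 and 64.4 CPM against 0, 0.085 and 0 CPM. The exceptions were HOXB3, at 14.7 to 16.4 CPM against 52.4 to 56.2 CPM, HOXD10, at 0.939 to 1.05 CPM against 5.71 to 8.20 CPM, and HOXD11, at 0.982 to 1.22 CPM against 2.52 to 2.81 CPM. HOXB2 was not called, at 1.07 to 1.99 and 1.59 to 2.29 CPM.

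**Figure D5:**
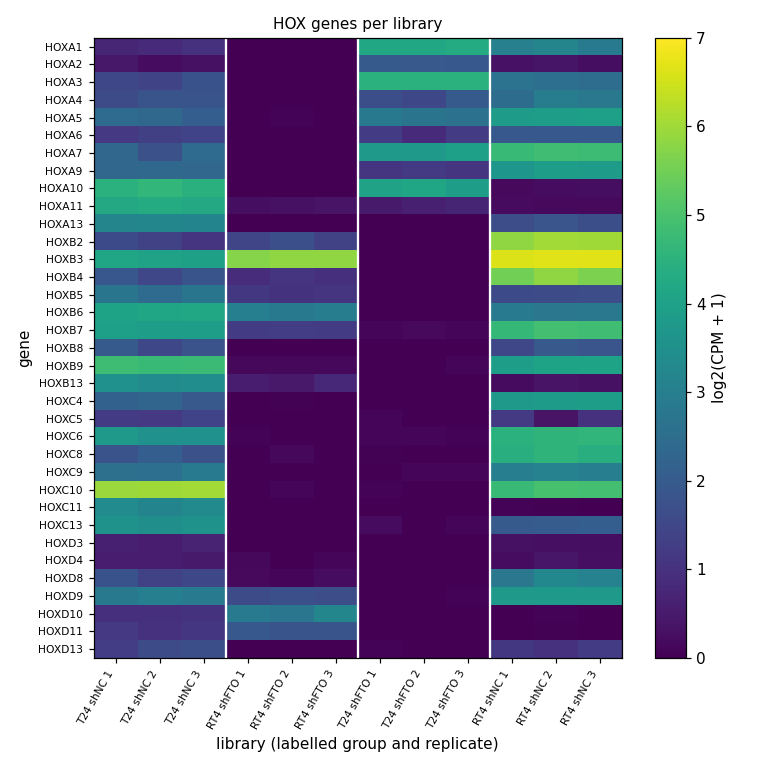
Level per library, as log2(CPM + 1), of 35 HOX genes ordered by cluster. The libraries labelled RT4 shFTO are dark for HOXA and HOXC genes and hold HOXB3 at 52.4 to 56.2 CPM.

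Mitosis genes and DNA replication genes leaned in opposite directions. Of 46 mitosis genes, 39 were higher in the libraries labelled RT4 shFTO and 3 in T24 shNC, with a median log2 difference of -0.62. MKI67, a marker of cycling cells, was at 143.8, 145.5 and 137.5 CPM in T24 shNC and 945.6, 879.6 and 889.3 CPM in the libraries labelled RT4 shFTO. UBE2C, a ubiquitin-conjugating enzyme that works with the anaphase-promoting complex, was at 32.5 to 35.7 CPM against 120.7 to 137.6 CPM. Of 48 DNA replication genes, 33 were higher in T24 shNC and 9 in the libraries labelled RT4 shFTO, with a median of 0.30. MCM2, a helicase subunit, was at 322.1, 331.5 and 346.5 CPM against 107.5, 106.3 and 108.9 CPM. PCNA, the polymerase clamp, overlapped at 182.4 to 199.9 and 199.1 to 203.4 CPM. Replication-dependent histone genes, whose messages mostly lack poly(A) tails, were higher in T24 shNC for 11 of 22 and in the other group for 1.

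In metabolism, hypoxia and glycolysis genes were present in both groups and leaned to the libraries labelled RT4 shFTO, 23 of 38 against 5 in T24 shNC. Their median log2 difference was -0.29, a small shift: library totals alone moved the median of all genes from 0.03 to 0.28. CA9, a hypoxia-induced carbonic anhydrase, was high in both, at 44.8, 48.1 and 46.9 CPM and 44.1, 45.6 and 46.2 CPM, with means of 7.09 and 0.068 in T24 shFTO and RT4 shNC. LDHA was not called between the groups, at 1675 to 1768 CPM and 1769 to 1865 CPM. EPAS1, a hypoxia-inducible factor, was at 84.2 to 91.8 CPM against 544.3 to 562.4 CPM, and VEGFA at 94.6 to 96.1 CPM against 406.1 to 418.0 CPM. ADM and LDHB ran the other way, with log2 differences within batches of 2.38 to 2.55 and 2.22 to 2.28.

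Stress and ATF4 genes, only some of which serve amino acid supply, were higher in T24 shNC for 21 of 30 and in the libraries labelled RT4 shFTO for 7. MTHFD2, a mitochondrial folate enzyme, was at 179.8, 189.6 and 188.4 CPM in T24 shNC and 0.107, 0.113 and 0.209 CPM in the libraries labelled RT4 shFTO, with means of 235.3 and 198.4 in T24 shFTO and RT4 shNC. SLC7A5, the large neutral amino acid transporter, was at 1507 to 1556 CPM against 150.2 to 155.1 CPM. Sterol and fatty acid synthesis genes split 14 and 15 of 31, and ACLY, which makes cytosolic acetyl-CoA, overlapped at 303.7 to 317.6 and 305.8 to 311.0 CPM. Of 13 mitochondrially encoded genes, 9 were higher in the libraries labelled RT4 shFTO and 1 in T24 shNC. Cytosolic ribosomal protein genes split 22 and 30 of 77, and their median log2 difference of -0.06 became 0.19 with library totals alone and 0.12 with upper-quartile scaling.

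Signalling lists split in both directions, beside 39.4% of all tested genes called higher in T24 shNC and 36.6% in the libraries labelled RT4 shFTO. Wnt pathway genes were higher in T24 shNC for 21 of 39 and in the libraries labelled RT4 shFTO for 13: RSPO3, a Wnt enhancer, was at 190.6 to 199.9 CPM against at most 0.113 CPM, and DKK3 at 7.23 to 10.3 CPM against 234.2 to 244.9 CPM. TGF-beta pathway genes were higher in the libraries labelled RT4 shFTO for 18 of 32 and in T24 shNC for 11, with the activin chain INHBA at 0.119 to 0.142 CPM against 23.8 to 27.4 CPM. Growth factor receptors and ligands split 19 and 24 of 46, with ERBB2 at 77.9 to 80.9 CPM and 61.4 to 68.5 CPM. Stem cell and progenitor genes split evenly, 14 and 14 of 35, near the shares over all tested genes.

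MTAP, a methionine salvage enzyme, was at 65.3, 71.5 and 66.0 CPM in T24 shNC and had no count in the libraries labelled RT4 shFTO, at least 2492-fold lower there. It was expressed at means of 62.3 and 37.4 CPM in T24 shFTO and RT4 shNC. Its neighbours on chromosome 9, chosen after MTAP's values were seen, stood likewise. In RefSeq order, KLHL9, MTAP and CDKN2B had no count in the libraries labelled RT4 shFTO, while CDKN2A, which encodes cell cycle inhibitors, had 6 counts in the 3 libraries. In T24 shNC these genes had, in the order named, means of 35.6, 67.6, 48.7 and 115.1 CPM. FOCAD, beyond KLHL9 on one side, was at means of 56.3 and 66.2 CPM in the pair, and CAAP1, beyond CDKN2B on the other, at 16.9 and 14.1 CPM.

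By chromosome, the median log2 difference of genes at 1 CPM or more in both groups was lowest on chromosome 13 (-0.65, 198 genes), followed by chromosome 10 (-0.58, 494 genes) and chromosome 20 (-0.58, 317 genes). It was highest on chromosomes 14 (0.19, 401 genes), 12 and 4. On chromosome 13, 133 genes were called higher in the libraries labelled RT4 shFTO and 39 in T24 shNC. DNA copy number was not measured, and its part was not tested.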

How the data were processed

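The deposited count table holds raw read counts per gene for 12 libraries and 43557 genes. Per the submitters' processing notes, fastp 0.20.0, STAR 2.7.9a and featureCounts 2.0 were used, and builds mm39, GRCh38 and hg38 are named with no role; the sources used here give neither strand setting nor annotation. Counts were tested as deposited with edgeR 4.0.16 (R 4.3.3): filterByExpr by group, TMM scaling and a robust quasi-likelihood fit over all 4 groups with 8 residual degrees of freedom. Levels are TMM-scaled CPM. Fitted log2 differences use a prior count of 0.125. DESeq2 1.42.0 and limma 3.58.1 were alternatives. Total counts were 31291047 to 43791909 in the 6 libraries described, and 3 counts over a group set the floor for a fold.

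The pair, its gene lists (44) and the named genes were chosen with earlier results of these data known. Named genes were FTO, the 12 largest differences each way at 50 CPM or more, the 12 genes most clearly high and low in both groups, the most abundant genes at least 4-fold apart, and per list up to 6 of the widest and 3 of the closest. List members high or low in both groups, and members named beside a list's exceptions (CDH1, CDH2, VIM, GATA3, METTL3, ALKBH5, the uroplakins, HOXB3, HOXD10, HOXD11, LAMB3) were added after values were seen. The labels give each library a batch, equal to its replicate number; each batch holds 1 library of each group, which pairs the samples. Deviations of same-numbered libraries correlated at 0.089, 0.054 and 0.067 over 10876 genes, each above the other numbers. The model was tested on simulated data for this comparison: over 16080 genes, 73.1%, 77.6% and 93.9% of genes changed 1.5-fold, 2-fold and 4-fold were recovered. Only 67, 67 and 66 genes were changed there, in T24 shNC alone, whereas 76.0% of genes were called in the real pair. The simulation therefore does not show how scaling or error rates behave when most genes differ. Some named genes are not reported here.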

Additional observations from a re-analysis of the deposited data

How the results depend on the processing

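Under RLE, upper-quartile and library-total scaling, other low-count filters, DESeq2, limma-voom and a fit to only the 6 libraries, the calls between the groups numbered 15046 to 18704 (17535 as reported), and the counts of genes high or low in both groups, which need all 4 groups and so were not made in the fit to 6 libraries, stayed within 1.5 times those reported. The replicate block gave 17176 calls, 192 genes high in both and 88 low in both, and moved no count by over 1.5 times. Leaving out 1 library at a time gave 17209 to 18020 calls (8821 to 9359 higher in T24 shNC, 8286 to 8661 higher in the libraries labelled RT4 shFTO), 187 to 195 genes high in both and 86 to 90 low in both. Asking for 2-fold as well left 10601 calls, 5746 higher in T24 shNC and 4855 in the libraries labelled RT4 shFTO, by construction fewer. Relaxing the shared definition to 2-fold gave 367 and 288 genes, and to 1 CPM 464 and 277. Scaling moved the balance: 51.9% of calls were higher in T24 shNC as reported, 58.3% with upper-quartile scaling and 60.6% with library totals.

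Of 297 named genes called, 274 kept call and direction under every alternative whose filter retained them. Those that reversed were small differences under upper-quartile scaling and library totals: AMOTL2 (0.0383 and 0.10), ASPM (0.10 and 0.16), CENPF (0.0557 and 0.12), IGF2BP3 (0.0793 and 0.14), MAP2 (0.0447 and 0.11), PDIA4 (0.0318 and 0.10), PPL (0.0268 and 0.0911), RPS2 (0.0528 and 0.12) and SREBF2 (0.0762 and 0.14), and under library totals alone B2M (0.0004), CALR (0.0381) and PKM (0.0367). Low depth at genes near 0 limits their folds to bounds. List medians that changed sign were those of cytosolic ribosomal protein genes (0.19 with library totals), endothelial markers (-1.54 with the 1 CPM filter), and melanocyte markers, simple keratins and sterol genes when 1 library was left out; the cause was not tested.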

Other observations

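Some genes were near 0 in 1 group of the pair alone. By a rule set after values were seen (under 1 CPM in that group and 30 CPM or more in each of the other 3), 7 genes were low in T24 shNC only and 11 in the libraries labelled RT4 shFTO only. Besides KEAP1, the former included MAGED1, an adaptor protein, at a mean of 0.142 CPM against 785.8 CPM, SOX9, a progenitor transcription factor, at 0.822 against 60.9 CPM, and ELOVL2, a fatty acid elongase, at 0.038 against 65.5 CPM. Besides MTHFD2 and the chromosome 9 genes, the latter included FBLN1, a matrix fibulin, at a mean of 314.0 CPM in T24 shNC against 0.824 CPM, KCTD15 at 40.1 CPM against 0, and CBS, a transsulfuration enzyme, at 33.6 against 0.458 CPM.

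A promoter search for the antioxidant response element core (TGACNNNGC, both strands) was added after the values were seen. Of the 7 NRF2 list genes high in both groups, 4 had a promoter searched, and none of the 4 held a match. The share was 13.6% of all promoters outside chromosome 8, 14.8% of those of tested genes and 12.3% of those of genes high in both. With 4 promoters, finding no match cannot show a lower share.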
